A study of Rattus norvegicus with 2 samples.

Results

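The collapsin response mediator proteins (CRMPs) are encoded by Crmp1, Dpysl2 (CRMP2), Dpysl3 (CRMP4), Dpysl4 (CRMP3) and Dpysl5 (CRMP5). The genes were chosen by symbol, matched to the RefSeq identifier of each row, and all 5 of them were found among the 9894 genes listed in either of 2 digital gene expression libraries. The RNA came from cells of the somatosensory cortex of E16 Sprague-Dawley rats, which were dissociated, electroporated with a plasmid, and grown for 48 h in medium with fetal bovine serum. One library was made from cells given the control plasmid and 1 from cells given the RNAi plasmid, which in this study was directed against Piwil1, a member of the Piwi family. Both groups share strain, stage, electroporation and time in culture, and the labels name neither the RNAi sequence nor the number of animals. The cells were not sorted, so RNA of cells that took up no plasmid is part of each library.

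CRMPs are cytosolic phosphoproteins that assemble into tetramers and are abundant in neurons while axons grow. CRMP2 was identified as a step in the signal by which semaphorin 3A, acting through neuropilin and plexin receptors, collapses growth cones. It binds tubulin dimers and favours microtubule assembly, and phosphorylation by Cdk5 and then by glycogen synthase kinase 3 lowers that binding. The proteins resemble dihydropyrimidinase, an enzyme of pyrimidine breakdown, and CRMP5 is the most divergent of the family.

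A library of this kind counts tags of 21 bases that begin at a CATG, the sequence that the enzyme NlaIII cuts. A gene with several such sites has several tags, and its copy number is the sum over its tags. Sites are numbered from the 3' end of the reference transcript, so site 1 is the site nearest to that end. Whether each reference transcript reaches the poly(A) tail was not checked. The tags below carry most of each gene's copies or passed the thresholds described further on, and they are shown because the results on Dpysl2 and Dpysl5 depend on single tags and on how tags end. They are written 5' to 3' in the sense of the transcript, with the last 2 bases in capitals.
Crmp1 site 1: catgagtcttcactagaaaGA
Crmp1 site 3: catggtgtctccattttccCT
Crmp1 site 5: catgtacgatggccccgtgTA
Dpysl2 site 1: catgtgtgtagccagaaagGT
Dpysl2 site 2: catgtgtaaatgctaacctAA
Dpysl2 site 3: catgtttacctgttggtttGC
Dpysl2 site 4: catgtcacctcatatctatCA
Dpysl3 site 1: catgtatgatggaccagtgTT
Dpysl3 site 3: catgctggaagatggtaacCT
Dpysl3 site 6: catgccgagaatggagacaTC
Dpysl4 site 1: catgctgctgtaccagacaCC
Dpysl4 site 7: catgtgctcagccacccagAA
Dpysl4 site 11: catgtgtttcctgatgctgGC
Dpysl5 site 1: catggccctgtgctttggcCA
Dpysl5 site 2: catggtgctaaggttgtatCA
Dpysl5 site 3: catgcagagctccagccacAG
Dpysl5 site 4: catgttcaaggggccactgTG
Dpysl5 site 6: catgggccttgggcagatgCC
Dpysl5 site 7: catgtctccccgatcccacAC

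The control library held 1947600 tag copies on genes (57.5% of its 3386865 clean tags) and the RNAi library 1865913 (56.5% of 3303359). Levels are given as TPM, which here means copies per 1000000 clean tags and is not divided by gene length. The fewest copies listed were 2 in each library. A floor of 3 copies was set for genes listed in 1 library only, which corresponds to 0.886 TPM in the control and 0.908 TPM in the RNAi library. Neither condition had a second library, so no difference has a replicate check. Fisher's exact test (two-sided, Benjamini-Hochberg over the 9894 genes) therefore sets the 2 libraries against each other and says nothing of variation between cultures, and every interval below is at 95% and covers counting error only. Genes were called where the FDR was 0.05 or lower with an absolute log2 ratio of TPM (RNAi over control) of at least 0.58. No row named Piwil1 was found by symbol, so the target of the RNAi plasmid was not analysed here.

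Neuronal markers were present, with Stmn2 at 2210 TPM in the control and 1719 TPM in the RNAi library, although Rbfox3, Nefl and Syt1 held at most 8 copies in either. They went both ways, with Gap43 at 788 and 1072 TPM, Dcx at 395 and 413 TPM, and Snap25, alone among them called (lower), at 271 and 165 TPM. Summed over 8 neuronal markers, all of them with a value, the level was 4122 TPM in the control and 3697 TPM in the RNAi library. Progenitor markers (5 of 6 with a value) summed to 968 and 1269 TPM, of which Vim gave 790 and 1127, while the other 4 were each lower in the RNAi library and summed to 178.9 and 141.7. Fibroblast markers (4 of 4) summed to 434 and 416 TPM. Astrocyte markers (4 of 5) summed to 192.5 and 199.8 TPM, and microglial markers (3 of 4) to 15.9 and 18.5. Oligodendrocyte markers (5 of 5 with a value) had few copies and went both ways, and none was called. Olig2 had 3 copies and Sox10 had 2 in the control, and neither was listed in the RNAi library. Mbp had 7 copies in the control and 4 in the RNAi library, whereas Pdgfra had 2 and 9. For the 4 vascular markers no value was found by symbol. The part of these differences in the CRMP values was not tested, and in RNA from whole cultures fewer cells of a type and less RNA per cell cannot be told apart.

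The 5 genes spanned a wide range of levels, and their order was the same in both libraries. Dpysl5 was highest, with 4490 copies (1326 TPM) in the control and 5748 copies (1740 TPM) in the RNAi library. Dpysl2 held 3537 copies (1044 TPM) in the control and 2922 copies (885 TPM) in the RNAi library. Crmp1 held 2778 copies (820 TPM) and 2426 copies (734 TPM). Dpysl4 and Dpysl3 lay far lower. Dpysl4 held 262 copies (77.4 TPM) in the control and 290 copies (87.8 TPM) in the RNAi library, and Dpysl3 107 copies (31.6 TPM) and 62 copies (18.8 TPM). No 2 neighbours in this order had overlapping counting intervals in either library. Dpysl5 ranked 41st among all genes in the control and 27th in the RNAi library, Dpysl2 60th and 78th, Crmp1 91st and 106th, Dpysl4 1441st and 1247th, and Dpysl3 3143rd and 4109th. These totals and ranks count the listed sites of each gene, which need not cover like parts of the transcripts.

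A gene with more cut sites can give more tags, so the order was also read from site 1 alone. There Dpysl5 stood at 928 TPM in the control and 1283 TPM in the RNAi library. Dpysl2 stood at 563 TPM in the control, above Crmp1 at 512 TPM, and their intervals (538 to 589 and 488 to 536) did not overlap. In the RNAi library the order turned, with Crmp1 at 464 TPM (441 to 488) and Dpysl2 at 380 TPM (359 to 402). Dpysl4 (66.4 and 79.6 TPM) and Dpysl3 (18.6 and 10.3 TPM) kept their places. Site 1 need not be a like position in each gene, however. The Dpysl3 tag of site 1 differs by 4 bases from the Crmp1 tag of site 5, which stood at 55.2 and 45.7 TPM. Neither site 1 alone nor the total over all sites therefore settles how far Dpysl3 lay below Crmp1. The copies of Crmp1 from site 5 on are given further below.

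**Figure D1:**
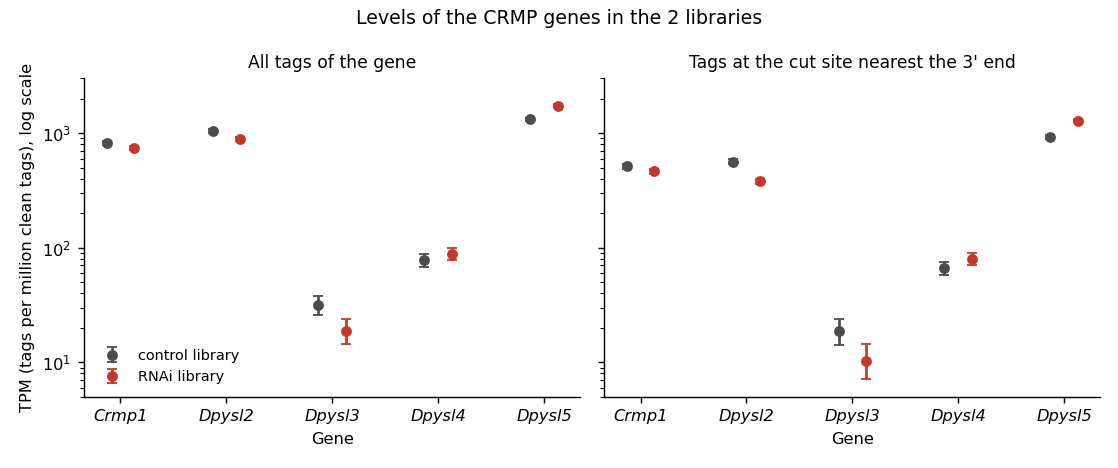
Levels of the 5 CRMP genes in TPM (copies per 1000000 clean tags, log axis) in the control and the RNAi library, over all tags (left) and over the tags of site 1 alone (right), with exact 95% Poisson intervals for counting error. Dpysl5 is highest in both panels, while Dpysl2 at site 1 goes from 563 TPM, above Crmp1, to 380 TPM, below it.

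The family as a whole differed little between the libraries, while its makeup shifted towards Dpysl5. The 5 genes together held 11174 copies in the control and 11448 in the RNAi library, 3299 and 3466 TPM, a log2 ratio of 0.07 (0.03 to 0.11), which was 0.17 when the libraries were scaled by edgeR's TMM factors in place of the tag totals. They took 0.574% of all copies on genes in the control and 0.614% in the RNAi library. Dpysl5 was 40.2% of the family's copies in the control (Wilson interval 39.3 to 41.1) and 50.2% in the RNAi library (49.3 to 51.1), a change of 10.0 percentage points. That change was 4.97 points with the tag end correction described below, 3.95 with the most copied tag of each gene left out and 13.5 with that tag alone. The share of Dpysl2 was 31.7% and 25.5%, that of Crmp1 24.9% and 21.2%, that of Dpysl4 2.34% and 2.53%, and that of Dpysl3 0.958% and 0.542%. These shares add up to the whole, so a higher share of one gene is a lower share of others.

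Dpysl3 alone among the 5 passed both thresholds. Dpysl3 (NM_012934), whose product CRMP4 is known to bind actin filaments, was lower in the RNAi library by a log2 ratio of -0.75 (-1.23 to -0.29), 0.594 of its control level (Fisher's exact test, FDR 0.0130). Of all genes, 5.97% (591) were called lower and 2.96% (293) higher, 459 and 398 with TMM factors and 475 and 382 with DESeq2's size factors, and 22.5% had a log2 ratio of -0.58 or less whatever their FDR. A single call among 5 genes is to be read against that background. Dpysl3 is also the gene of the family with fewest copies, and it lost its call already at the smallest spread between cultures that was assumed (FDR of 0.231 in edgeR's exact test at a biological coefficient of variation of 0.1).

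The tags of Dpysl3 were low in number, and most of them were lower in the RNAi library. The tag of site 1 had 63 copies in the control and 34 in the RNAi library, a log2 ratio of -0.85 (-1.50 to -0.23) that did not pass among all tags (FDR of 0.140, Fisher's exact test) and just passed when tags under 20 copies were not tested (FDR of 0.049996). The tags of all other sites held 44 and 28 copies, a log2 ratio of -0.62 (-1.35 to 0.10). Of its 10 tags 8 were listed in both libraries and 2 in the control alone, and 7 were lower and 3 higher in the RNAi library. The tag of site 3 had 12 and 4 copies, and that of site 6 had 7 and 4.

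Dpysl5 was higher in the RNAi library and passed the FDR of Fisher's exact test, but stayed under the ratio threshold. It did not pass in edgeR's exact test with an assumed coefficient of variation of 0.1 (FDR of 0.363), nor did Dpysl2 (0.759) or Crmp1 (0.855). Dpysl5 (NM_023023), whose product can associate with CRMP2 and is known from work on neurite outgrowth, had a log2 ratio of 0.39 (0.34 to 0.45), 1.31 times its control level (Fisher's exact test, FDR 5.6e-46). At this depth a small ratio passes the FDR alone in many abundant genes. Over all genes the FDR alone was passed by 9.53% in the lower and 7.14% in the higher direction, and among the 733 genes whose copies in the 2 libraries summed to 1000 or more by 29.3% and 34.7%. Both thresholds together called 6.82% of those 733 genes lower and 4.09% higher. In that group, where the median log2 ratio was 0.01 (quartiles -0.24 and 0.23), 83 genes (11.3%) had a ratio at or above that of Dpysl5.

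Dpysl2 and Crmp1 were lower in the RNAi library, again within the ratio threshold. Dpysl2 (NM_001105717), the tubulin-binding CRMP2, had a log2 ratio of -0.24 (-0.31 to -0.17), 0.847 of its control level (Fisher's exact test, FDR 8.35e-08). Among the 733 abundant genes 184 (25.1%) had a ratio at or below it. Crmp1 (NM_012932), whose product also takes part in semaphorin 3A signalling, had a log2 ratio of -0.16 (-0.24 to -0.08), 0.895 of its control level, with an FDR of 0.00812 by the same exact test. Of the abundant genes 233 (31.8%) lay at or below Crmp1. The FDR of Crmp1 became 0.312 with TMM factors.

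Dpysl4 did not pass the test. Dpysl4 (NM_012933), encoding CRMP3, had a log2 ratio of 0.18 (-0.06 to 0.43) (Fisher's exact test, FDR 0.294). Its interval holds both no difference and a rise of about the size seen in Dpysl5. Almost all of its copies were at site 1, 225 of 262 in the control (85.9%) and 263 of 290 in the RNAi library (90.7%), and the 37 and 27 copies at its other sites gave a log2 ratio of -0.42 (-1.19 to 0.34).

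The tags of Dpysl2 did not move together, and the difference lay at site 1. Site 1 of Dpysl2 held 1908 copies in the control and 1255 in the RNAi library, a log2 ratio of -0.57 (-0.67 to -0.46). All its other sites together held 1629 and 1667 copies, a log2 ratio of 0.07 (-0.03 to 0.17). The gene's lower level in the RNAi library was thus carried by site 1. The share of site 1 in the copies of Dpysl2 was 53.9% in the control (Wilson interval 52.3 to 55.6) and 43.0% in the RNAi library (41.2 to 44.8), a change of -11.0 percentage points. Among 682 genes with at least 1000 copies, in the control both at site 1 and elsewhere, the median change was 1.05 points, and 23 genes (3.37%), Dpysl2 included, changed that far down or further. These genes were not matched to Dpysl2 for the last bases of their tags, which are taken up below.

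Site 1 and the other sites went the same way in the other abundant members. In Crmp1 the log2 ratio was -0.14 at site 1 and -0.19 at the other sites, and site 1 held 62.4% and 63.2% of the copies. In Dpysl5 it was 0.47 at site 1 (3143 and 4238 copies) and 0.20 elsewhere (1347 and 1510 copies), and the share of site 1 went from 70.0% to 73.7%. In Dpysl3 the share of site 1 was 58.9% and 54.8%.

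Of the 118 tags listed for the 5 genes, 46 had 20 or more copies over the 2 libraries, 16 of them on Dpysl2, 16 on Dpysl5, 12 on Crmp1 and 1 each on Dpysl3 and Dpysl4. They were split evenly, with 23 lower and 23 higher in the RNAi library. Two-sided Fisher's exact tests over all 53118 tags called 2 of the 46 lower and 3 higher, beside 5.26% lower and 3.07% higher among the 16021 tags of all genes with at least 20 copies. Tags of 1 gene share its RNA and are not replicates. Among the 46 are also a few tags that differ by 1 base from a more copied tag of their site, described at the end.

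Both tags called lower belonged to the genes with most copies. The Dpysl2 tag of site 1 had 1862 copies in the control and 1208 in the RNAi library, a log2 ratio of -0.59 (-0.69 to -0.48) (Fisher's exact test, FDR 6.78e-24). That ratio is close to the threshold and was -0.49, uncalled, with TMM factors. The Dpysl5 tag of site 4 had 175 and 60 copies, a log2 ratio of -1.51 (-1.96 to -1.08) with an FDR of 4.62e-11 by the same exact test, against the direction of its gene. Without site 4, Dpysl5 held 4313 copies in the control and 5688 in the RNAi library, a log2 ratio of 0.44 (0.38 to 0.49).

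The 3 tags called higher were on the same genes. The Dpysl2 tag of site 3 had 113 copies in the control and 174 in the RNAi library, a log2 ratio of 0.66 (Fisher's exact test, FDR 0.00326). The Dpysl5 tags of site 2 (54 and 98 copies, log2 ratio 0.90, FDR of 0.00535) and of site 6 (64 and 104 copies, log2 ratio 0.74, FDR of 0.0268, same exact test) also passed. All 3 lie on the same transcripts as a tag that was called lower.

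The most copied tags without a call showed smaller differences. The Dpysl5 tag of site 1, the most copied of the family, had 3119 copies in the control and 4203 in the RNAi library, a log2 ratio of 0.47 (0.40 to 0.53), and that of site 3 had 471 and 668, a log2 ratio of 0.54, called higher at 0.63 with TMM factors. The Dpysl5 tag of site 7 had 250 and 239 copies, a log2 ratio of -0.03 (-0.29 to 0.23). The interval of site 7 thus lies below that of site 1 on the same gene. The Dpysl2 tag of site 4 had 800 and 753 copies, a log2 ratio of -0.05, and that of site 2 had 198 and 239, a log2 ratio of 0.31. In Crmp1 the tag of site 1 had 1689 and 1504 copies, a log2 ratio of -0.13, and that of site 5 had 187 and 151. The tag of Crmp1 at site 3 went further, with 421 and 283 copies and a log2 ratio of -0.54 (-0.76 to -0.32), under the ratio threshold (Fisher's exact test, FDR 2.16e-04).

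**Figure D2:**
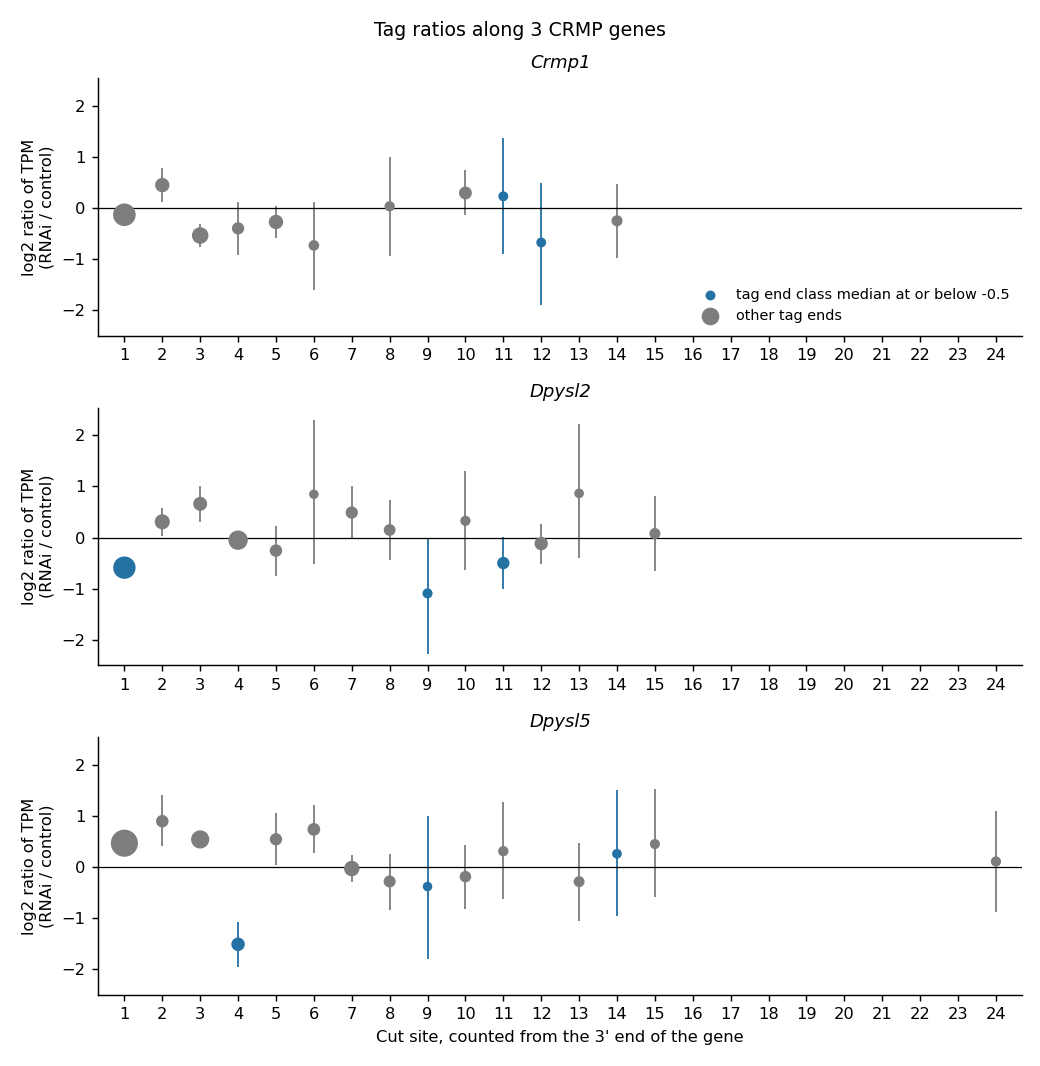
Log2 ratio (RNAi over control) of each tag with at least 20 copies of Crmp1, Dpysl2 and Dpysl5 against its cut site counted from the 3' end, with exact 95% intervals and larger markers for more copies, 1-base variants of a site tag left out; blue tags share their last bases with classes whose median over all genes is -0.5 or less. The Dpysl2 tag of site 1 lies at -0.59 and the Dpysl5 tag of site 4 at -1.51, while the Dpysl5 tag of site 1 lies at 0.47.

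How a tag ended moved with its ratio across the whole table, and this touches the CRMP tags. Over the 16021 tags of all genes with at least 20 copies the median log2 ratio was -0.08, but it was -0.67 for the 634 tags ending in GT, -0.67 for the 866 ending in TG and -0.55 for the 689 ending in GG. It was 0.16 for tags ending in CA and 0.15 for those ending in GC. Medians were higher still for tags closing in long runs of A, 0.90 at 8 A and 1.91 at 13 or more. The Dpysl2 tag of site 1 ends in GT and the Dpysl5 tag of site 4 in TG, as the capitals above show, while the Dpysl5 tag of site 1 ends in CA and the Dpysl2 tag of site 3 in GC.

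Among the CRMP tags, 4 of 4 ending in GT were lower in the RNAi library, 3 of them on Dpysl2 and 1 on Dpysl5. Of 2 ending in TG, that of Dpysl5 at site 4 was lower and that of Crmp1 at site 11 was higher (14 and 16 copies). In classes with a median of -0.5 or less, 7 of 9 CRMP tags were lower, and in the other classes 16 of 37 were lower and 21 higher. Over all genes the upper quartile of the log2 ratio was -0.26 for GT, -0.02 for TG and -0.04 for GG. Most tags of these classes were thus lower whatever the gene, and these counts do not set the CRMP tags apart. Across the 46 tags the log2 ratio and the median of the tag's class gave a Spearman rho of 0.58 and a Pearson r of 0.59, a description over tags that share 5 genes and the same 2 libraries.

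**Figure D3:**
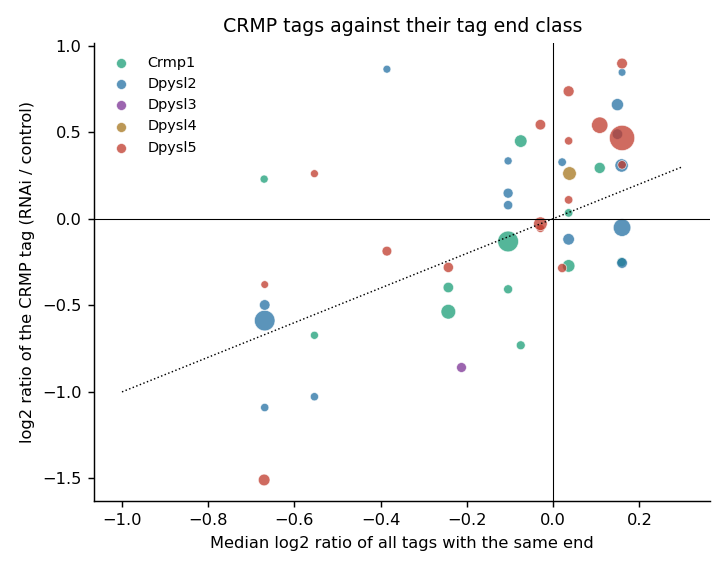
Log2 ratio of each CRMP tag with at least 20 copies (vertical axis) against the median log2 ratio of all tags with the same last bases (horizontal axis), coloured by gene, with larger points for more copies and a dotted line of identity. The Dpysl2 tag of site 1 (-0.59) lies near its class median of -0.67, and the Dpysl5 tag of site 4 (-1.51) lies below its class median of -0.67.

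For Dpysl2 the split by tag end followed the split by site. Its tags ending in GT held 1974 copies in the control and 1285 in the RNAi library, a log2 ratio of -0.58 (-0.69 to -0.48). Its tags with other ends held 1563 and 1637 copies, a log2 ratio of 0.10 (0.002 to 0.20), and of those with at least 20 copies 9 were higher and 4 lower. When the copies of every tag were corrected for the median of its class, estimated on other genes, the log2 ratio of Dpysl2 was -0.05 (-0.12 to 0.03) and its site 1 tag stood at -0.02. Under the same correction Dpysl5 kept a log2 ratio of 0.22 (0.16 to 0.28) (Fisher's exact test, FDR 9.5e-16), Crmp1 had -0.10 with an FDR of 0.291, and Dpysl3 stayed called at -0.67 with an FDR of 0.0446. The Dpysl5 tag of site 4 stayed called at -0.82 with an FDR of 0.00672 by the exact test, and the 3 tags called higher were no longer called. What sets the difference between tag ends was not tested.

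**Figure D4:**
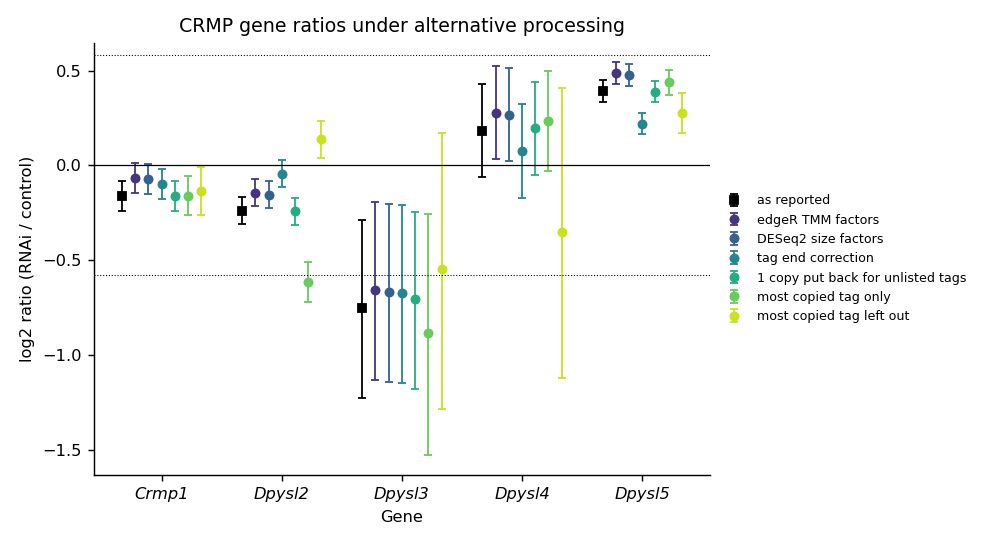
Log2 ratio (RNAi over control) of each CRMP gene as reported and under some of the alternatives. Those shown are TMM factors, DESeq2's size factors and the tag end correction. Also shown are 1 copy put back for unlisted tags, and the most copied tag alone or left out. Dpysl5 stayed above 0 (0.22 to 0.49) and Crmp1 (-0.16 to -0.06) and Dpysl3 (-0.88 to -0.55) below it, whereas Dpysl2 ran from -0.62 with its most copied tag alone to 0.14 without that tag, and Dpysl4 from -0.35 to 0.28.

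The CRMP coding sequences resemble each other, so the listed tags were compared with one another. No tag was listed under more than 1 gene, and the 74 site tags of the family differed by at least 3 bases from every tag of another gene in the table. Tags that fit more than 1 gene would not appear here if they had been left out before deposit. The comparison therefore cannot show that every tag belongs to a single transcript. Between family members the closest tags differed by 2 bases (3 pairs), and 9 pairs differed by 4 bases or fewer, 7 of them with Dpysl3 and none with Dpysl4 or Dpysl5. One stretch that is alike in 4 of the genes is shown here, with capitals at the bases that differ from Crmp1.
Crmp1 site 12: catgttgttcctgaacctggg
Dpysl2 site 19: catgttgttcctgaGccCggg
Dpysl3 site 10: catgtGgtAcctgaacctgAg
Dpysl4 site 11: catgtGTttcctgaTGctggC
These tags had few copies, 18 and 11 for Crmp1, 11 and 5 for Dpysl2, 4 and 5 for Dpysl3, and 10 and 7 for Dpysl4, in the control and the RNAi library in turn.

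The site numbers also place the genes' sites against each other. The Dpysl3 tag of site 1 differs by 4 bases from the Crmp1 tag of site 5, on whose 3' side Crmp1 has 4 further sites, which held 85.4% of its copies in the control and 85.0% in the RNAi library. At site 5 and above Crmp1 held 405 and 363 copies, still more than the 107 and 62 of Dpysl3, with a log2 ratio of -0.12 (-0.33 to 0.09). Neighbouring tags can overlap in the transcript, as those of Dpysl2 at sites 12 and 11 do over 11 bases and those at sites 13 and 12 over 13 bases.

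The gene ontology terms deposited with the table group the family by its likeness to an enzyme. A term for hydrolases acting on cyclic amides was on 4 genes in all, of which 3 were Crmp1, Dpysl2 and Dpysl3. The term "cell body" was on Crmp1, Dpysl2 and Dpysl5, "neuron projection" on Crmp1 and Dpysl5, and "site of polarized growth" on Dpysl2 and Dpysl3.

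Genes around the CRMPs in semaphorin signalling and in the cytoskeleton mostly did not pass both thresholds. A list of 35 such genes was taken from textbook knowledge, and 26 had a value. Of these 1 was called lower and 2 higher, beside 5.97% and 2.96% of all genes, and 23 were not called. The median log2 ratio of the 25 listed in both libraries was 0.05, against -0.09 over the 8899 genes listed in both. For Sema3a, Plxna1, Plxna4, Rock1, Rock2, Fes, Klc1, Ranbp9 and Dpys no value was found by symbol, and they were not analysed here.

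Among ligand and receptors, 4 of 7 had a value. Plxna3, a plexin that carries the semaphorin signal, had 234 copies in the control and 373 in the RNAi library and was called higher, with a log2 ratio of 0.71 (0.47 to 0.95) (Fisher's exact test, FDR 2.17e-08). Its most copied tag (63 and 98) and its other tags (171 and 275, log2 ratio 0.72) gave like values. L1cam, an adhesion molecule of the receptor complex, had 705 and 719 copies, a log2 ratio of 0.06.

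None of the 6 kinases and activators with a value was called, with log2 ratios from -0.48 for Cdk5r1, the activator of Cdk5, to 0.29 for Cdk5 itself (175 and 208 copies). Of the phosphatases and proteases, 4 of 4 had a value. Ppp2ca, the catalytic subunit of protein phosphatase 2A, had 364 copies in the control and 821 in the RNAi library and was called higher, with a log2 ratio of 1.21 (1.03 to 1.39) (Fisher's exact test, FDR 4.54e-43). That rise was 1 tag, of site 1, which went from 76 to 571 copies, whereas the other tags of Ppp2ca held 288 and 250, a log2 ratio of -0.17 (-0.42 to 0.08). Ppp1ca, the catalytic subunit of protein phosphatase 1, had 1393 and 1088 copies, a log2 ratio of -0.32.

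Of the binding partners 7 of 9 had a value, and the tubulins were the most copied. Tuba1a, an alpha tubulin of growing neurons, had 1573 copies in the control and 1335 in the RNAi library, a log2 ratio of -0.20. Tubb3, the neuronal beta tubulin, had 1538 and 1068, a log2 ratio of -0.49 (Fisher's exact test, FDR 2.30e-14), under the ratio threshold. Wasf1, part of the WAVE complex that CRMP2 carries along axons, had 826 and 975 copies, a log2 ratio of 0.28. Kif5b, a heavy chain of the kinesin motor, was called lower, with 8 copies in the control and 0 in the RNAi library. The exact test put Kif5b at an FDR of 0.0480. The control level was 2.60 times the RNAi floor of 3 copies, taking the 8 copies as exact. With counting error, the interval of the Kif5b log2 ratio reached up to -0.74. All 5 GTPases and regulators had a value and none was called, Chn1, a regulator of Rac, with 401 and 361 copies and a log2 ratio of -0.12.

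The genes whose levels in both libraries were nearest to a CRMP were sought by the Euclidean distance of log2 TPM over the 2 libraries. With 2 libraries this finds genes of the same level and ratio and nothing finer. Nearest to Crmp1 were Prdx2, Tubb4b and Anapc5, at distances of 0.02 to 0.05, and nearest to Dpysl2 were Tubb5, Mpped1 and Ldha, at 0.06 to 0.15. Nearest to Dpysl3 were a gene without a symbol (NM_001013189), Minpp1 and Mrps15, at 0.02 to 0.04, and nearest to Dpysl4 were Adh5, Klhdc3 and Dnal4, at 0.0049 to 0.03. Near to Dpysl5, but farther off than for the other members, were Cox4i1 and Gapdh, at 0.21 and 0.25.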

How the data were processed

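The authors deposited, for each of the 2 libraries, the tags of every gene with their copy numbers and the gene's tag count, without normalization. The TPM deposited beside it was scaled by the authors to all clean tags, with no gene length. The submitters' processing notes name rn4; the tag-matching program and reference transcripts are not given in the sources used here, so no coordinates are printed. Symbols came from RefSeq by identifier (9337 of 9894 genes, 94.37%). Columns of gene ontology terms were read as annotation.

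Fisher's exact test was run per gene and per tag against all other tags on genes, with Benjamini-Hochberg adjustment, in Python 3.11.15 with SciPy 1.17.1. Ratio intervals are exact (Clopper-Pearson), levels have Poisson and shares Wilson intervals. For the tag end correction, classes were the last 2 bases of a tag, or its closing run of at least 3 A, and class medians came from alternate genes. Alternatives used edgeR 4.0.16 and DESeq2 1.42.0 (R 4.3.3). The code was tested on simulated data.

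The 5 genes, the lists and the tests were chosen with earlier results of these data known. Named were all 5 genes, of the pathway list every called gene, every gene without a value and the 6 uncalled genes with most copies, and the 3 genes nearest to each CRMP. One of these nearest genes and 1 marker are not reported here. Sequences are shown for the 3 most copied and all called tags of each gene. The alignment of 4 tags was chosen after their values were seen, as was the naming of Cdk5, Cdk5r1, Nrp1 and Plxna2 and of the Crmp1 tag of site 11.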

Additional observations from a re-analysis of the deposited data

How the results depend on the processing

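No paired analysis was possible because each condition had 1 library. Each gene was refitted under 16 alternatives chosen beforehand and 1, the most copied tag of each site only, chosen after seeing the data. Crmp1 and Dpysl5 kept their direction and stayed uncalled in all 17, but under each assumed biological coefficient of variation (BCV) neither passed the FDR, nor did Dpysl2. In some of the 17 the reported ratio was kept, so no direction could change. These were the assumed BCVs, all clean tags as totals, at least 10 copies, and the stricter log2 and FDR thresholds. The stricter thresholds could not add a call either. Dpysl2 was called at -0.62 with its most copied tag only and reversed to 0.14 with that tag left out, where Dpysl4 reversed to -0.35. Dpysl3 kept its direction but lost its call at -0.75 with an assumed BCV of 0.1, 0.2 or 0.4, a log2 threshold of 1 or an FDR threshold of 0.001, and at -0.55 with its most copied tag left out. The family's log2 ratio was 0.17 with TMM factors, 0.16 with DESeq2's size factors and 0.11 with the most copied tag left out. Genes called lower and higher, 591 and 293 as reported, were 170 and 114 at a BCV of 0.1, 2 and 15 at 0.2, 0 and 0 at 0.4, 363 and 188 with the tag end correction, 230 and 153 with the most copied tag left out, 262 and 146 at a log2 threshold of 1, and 257 and 163 at an FDR of 0.001. Of the pathway list, 0 were called lower under each assumed BCV, with at least 10 copies, without tags that close in 8 or more A, with the tag end correction, with 1 copy put back, with the most copied tag left out and at an FDR of 0.001, and called higher were 1 at a BCV of 0.1, 0 at 0.2 and 0.4, and 1 at a log2 threshold of 1. With the most copied tag left out 2 were called higher, but not the same 2. Ppp2ca then held 288 copies in the control and 250 in the RNAi library. CRMP tags called lower and higher, 2 and 3 as reported, were 1 and 4 with TMM factors, 1 and 0 with the tag end correction, and 3 and 3 when tags under 20 copies were not tested. With no spread between cultures measured, small ratios of abundant genes pass the FDR, and for Dpysl3 and Dpysl4 the copies limit what can be seen. The cause of these changes was not tested, except that a stricter threshold lowers counts by construction.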

Other observations

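Of the 118 CRMP tags, 44 differed by 1 base from the tag of their site, and 34 of these were at site 1. They held 145 copies in the control (1.30% of the family's copies) and 147 in the RNAi library (1.28%). Positions are counted from 1 at the first base of the tag. At site 1 of Crmp1 the change A5C made up 34 copies in the control (1.96%) and 25 in the RNAi library (1.63%). At site 1 of Dpysl2, T21A had 13 and 16 copies and T21G had 23 and 11. At site 5 of Dpysl5, T14C made up 16 of 75 copies in the control (21.3%, Wilson interval 13.6 to 31.9) and 15 of 96 in the RNAi library (15.6%, 9.70 to 24.2). These 4 were all the changed tags that reached 20 copies over the 2 libraries. Changes with fewer copies could take as large a share of their site, such as A5G at site 6 of Dpysl2, with 3 copies beside 8 of the site tag in the control and 6 beside 14 in the RNAi library.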
